A study of Mus musculus with 10 samples.

Results

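The sarcomere and myogenic genes are 35 genes that code for the contractile filaments of striated muscle, their scaffold, a muscle creatine kinase, a calcium release channel and the transcription factors that start the muscle programme. They were chosen by name as genes of striated muscle, with earlier results of these data known, and each was read from its own probe set, the one with the highest mean where a gene had several. Of the 35 genes, 34 were measured among 18820 genes in all. Myh6, the cardiac alpha myosin heavy chain, was annotated only on a probe set shared with Myh7 and was not analysed as a gene of its own.

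The genes were measured in 10 mouse teratomas, growths in which implanted pluripotent cells have made many tissues side by side, each on its own Affymetrix array. There were 4 teratomas carrying P81S VHL, 3 carrying R167Q VHL and 3 carrying wildtype VHL. All of them came from Vhl-/- embryonic stem cells, J1 cells of the Sv/129 strain in the labels, in which a human cDNA of the named VHL form had been electroporated. The cells were placed under the skin of both flanks of female nu/nu mice, whose age is not given, and tumours were collected at 1 cm. P81S tumours are labelled apoptosis-resistant, and R167Q and wildtype tumours are labelled apoptotic. The P81S arrays are 2 replicates from each of 2 clones, and which arrays share a clone is not stated. The promoter driving the cDNA is not stated in the labels. Whole tumour RNA was profiled, so donor and host cells were measured together. The titles call the replicates biological, and no source says that they came from separate animals. The p-values thus measure only the spread between these teratomas, which may be technical in part. The main test counted the 4 P81S arrays as independent, so its p-values do not allow for arrays that share a clone.

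Striated muscle contracts when myosin heads on the thick filament pull on actin in the thin filament, with titin and nebulin setting filament order and the troponin complex making the pull depend on calcium. Most of these proteins exist as isoforms made by separate genes, and the mix tells fast skeletal, slow skeletal, developing and cardiac muscle apart. In skeletal muscle the basic helix-loop-helix factors Myf5 and Myod1 commit cells to the lineage, and Myog and Myf6 drive their differentiation. Muscle is one of the mesodermal tissues commonly found in teratomas.

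The 34 measured genes were grouped by known role. Fast skeletal muscle was represented by 9 genes, developmental skeletal muscle by 2, slow skeletal muscle by 3, cardiac muscle by 5, and isoforms shared by heart and slow muscle by 4. The other genes were 2 striated actins, 3 scaffold genes, the pair Ckm and Ryr1, and 4 myogenic factors. The median log2 value of an array was 6.97 to 7.11. The mouse Vhl probe set read 8.49 to 8.90 log2 in P81S arrays, 6.83 to 7.21 log2 in R167Q arrays and 6.85 to 6.95 log2 in wildtype arrays. Whether that probe set detects the human cDNA or the disrupted mouse transcript is not stated, so it does not check the labels.

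Promoter windows are shown here because E-boxes, the letters CANNTG on which basic helix-loop-helix factors act, and CArG boxes, on which serum response factor acts, are the classical elements of muscle genes. RefSeq windows of 300 bases on GRCm38.p6, which run from 250 bases before each start site to 50 after it, were matched for 30 of the 35 genes. Printed are 1 myogenic factor, an enzyme, both striated actins, and the 2 members that passed the test between genotypes. Capitals mark E-boxes and CArG boxes.
Myog (chr1:134289754-134290053, plus strand): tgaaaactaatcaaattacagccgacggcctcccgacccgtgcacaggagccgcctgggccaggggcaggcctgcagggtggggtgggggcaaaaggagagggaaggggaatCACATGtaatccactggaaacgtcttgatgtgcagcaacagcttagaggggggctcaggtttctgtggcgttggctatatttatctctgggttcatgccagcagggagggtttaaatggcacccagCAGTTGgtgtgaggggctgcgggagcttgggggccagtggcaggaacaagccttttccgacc
Ckm (chr7:19410844-19411143, plus strand): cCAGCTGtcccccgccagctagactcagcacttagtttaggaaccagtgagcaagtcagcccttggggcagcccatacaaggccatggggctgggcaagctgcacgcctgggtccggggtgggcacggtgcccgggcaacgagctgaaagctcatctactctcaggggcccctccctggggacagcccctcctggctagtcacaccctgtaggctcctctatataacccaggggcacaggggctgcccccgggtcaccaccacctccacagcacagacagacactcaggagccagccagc
Acta1 (chr8:123894726-123895025, minus strand): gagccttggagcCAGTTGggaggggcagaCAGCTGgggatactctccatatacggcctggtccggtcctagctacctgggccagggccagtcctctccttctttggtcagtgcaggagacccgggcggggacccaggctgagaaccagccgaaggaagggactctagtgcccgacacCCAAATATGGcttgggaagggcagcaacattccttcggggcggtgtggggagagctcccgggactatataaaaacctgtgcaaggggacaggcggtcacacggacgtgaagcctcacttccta
Actc1 (chr2:114052826-114053125, minus strand): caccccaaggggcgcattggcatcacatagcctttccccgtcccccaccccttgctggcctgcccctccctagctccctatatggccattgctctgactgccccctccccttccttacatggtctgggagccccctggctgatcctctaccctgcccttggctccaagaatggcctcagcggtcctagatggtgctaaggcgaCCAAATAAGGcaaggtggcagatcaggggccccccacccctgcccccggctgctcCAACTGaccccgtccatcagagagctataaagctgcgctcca
Tnnc1 (chr14:31208062-31208361, plus strand): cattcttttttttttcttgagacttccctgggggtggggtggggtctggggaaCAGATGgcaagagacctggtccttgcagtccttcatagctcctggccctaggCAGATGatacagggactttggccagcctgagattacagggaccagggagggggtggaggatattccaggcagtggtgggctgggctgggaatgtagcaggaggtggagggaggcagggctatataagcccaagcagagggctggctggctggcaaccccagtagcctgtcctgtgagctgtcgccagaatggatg
Myl7 (chr11:5898733-5899032, minus strand): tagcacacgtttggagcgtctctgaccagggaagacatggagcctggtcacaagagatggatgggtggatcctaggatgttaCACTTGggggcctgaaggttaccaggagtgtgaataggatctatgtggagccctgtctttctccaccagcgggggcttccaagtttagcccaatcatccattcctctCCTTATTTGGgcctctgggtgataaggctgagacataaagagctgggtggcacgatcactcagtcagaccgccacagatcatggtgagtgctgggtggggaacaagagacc

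The first base of the CArG box lay at -73 in Acta1, -47 in Actc1 and -61 in Myl7, counted from the start site. E-boxes began at -138 and -12 in Myog, -249 in Ckm, -238 and -221 in Acta1, 8 in Actc1, -197 and -145 in Tnnc1, and -168 in Myl7. Over the 34 windows of the 30 genes, searched on both strands, CANNTG occurred in 29 windows, which is 85.3%, against 72.3% of all 32851 windows. CAGCTG, a subset of CANNTG, occurred in 13 windows (38.2%), against 16.3% of all windows. The MEF2 box occurred in 5 windows (14.7%), against 3.19% of all windows, and the CArG box in 5 windows (14.7%), against 1.63%. Genes with a CArG box were Acta1, Actc1, Myh4, Myl3 and Myl7. These matches describe the letters of the windows only.

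A few teratomas carried most of the high muscle values, and they belonged to both mutant genotypes. R167Q replicate 1 was the highest of the 10 arrays for 15 of the 34 genes, and P81S replicate 3 for 12. R167Q replicate 1 was among the top 3 arrays for 31 genes, P81S replicate 3 for 30 and P81S replicate 4 for 21. Those arrays together were the top 3 for 19 of the 34 genes and for 10 of the 14 skeletal isoforms. Within P81S, replicate 3 was the highest for 13 of the 14 skeletal isoforms and replicate 2 the lowest for 13. Within R167Q, replicate 1 was the highest for 14 of 14. Among wildtype arrays no single teratoma led: replicate 1 was the highest for 7 skeletal isoforms, replicate 2 for 6 and replicate 3 for 1. In whole tumours, fewer muscle cells and less muscle RNA per cell cannot be told apart.

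**Figure D1:**
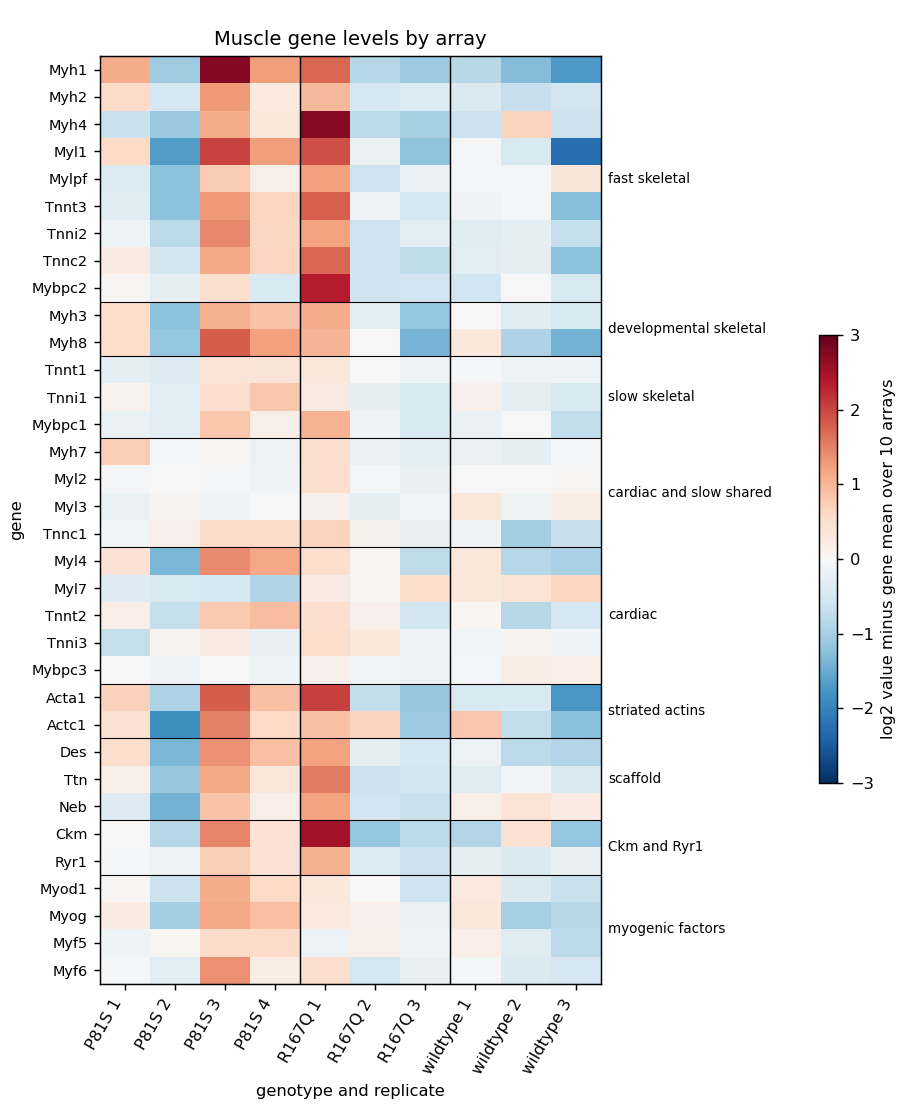
Colour gives each gene's log2 value minus its own mean over the 10 arrays, with genes in rows by class and arrays in columns by genotype. The columns of P81S replicate 3 and R167Q replicate 1 are red in most rows, P81S replicate 2 is blue in most rows, and the rows of Myl2, Myl3 and Mybpc3 are pale.

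The fast skeletal genes varied widely between teratomas. Myh1, a myosin heavy chain of adult fast fibres, read 7.46, 5.27, 9.10 and 7.60 log2 in P81S replicates 1 to 4, then 8.07, 5.48 and 5.25 in R167Q and 5.52, 5.04 and 4.63 in wildtype. P81S replicate 2 and R167Q replicates 2 and 3 lay among the wildtype values, and the other 4 mutant arrays lay above them. Myh1 also had the widest range of all members, 4.47 log2 between P81S replicate 3 and wildtype replicate 3. The wildtype values lay below the median of the unannotated control probe sets of the same arrays, 5.93, 6.18 and 5.94 log2, so Myh1 was not shown to be above background in wildtype. Myl1, the fast essential light chain, read 9.51, 7.24, 10.95 and 10.17 log2 in P81S, 10.85, 8.73 and 7.70 in R167Q and 8.88, 8.47 and 6.66 in wildtype. All groups overlapped for Myl1, with the high arrays again P81S replicates 3 and 4 and R167Q replicate 1. Lowest and highest values over the 10 arrays were 5.28 and 7.25 for Myh2, 5.31 and 9.16 for Myh4, 7.59 and 10.66 for Tnnt3, and 5.41 and 8.37 for Mybpc2. Myh2 and Myh4 are myosin heavy chains of other adult fast fibre types, Tnnt3 is fast troponin T and Mybpc2 is fast myosin-binding protein C. They were 6.23 and 8.69 for Mylpf, 6.62 and 8.88 for Tnni2, and 5.64 and 8.59 for Tnnc2, the fast regulatory light chain, troponin I and troponin C.

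In the developmental class, Myh3, the embryonic myosin heavy chain, read 7.71, 5.94, 8.23 and 8.02 log2 in P81S, 8.27, 6.84 and 6.02 in R167Q and 7.19, 6.80 and 6.68 in wildtype. Wildtype values sat close together, inside the wider span of each mutant. Myh8, the perinatal myosin heavy chain, read 7.88, 6.16, 9.14 and 8.55 log2 in P81S, 8.34, 7.32 and 5.94 in R167Q and 7.64, 6.39 and 5.92 in wildtype. All groups overlapped, and P81S replicates 3 and 4 were the highest. The slow genes spread less. Tnni1, slow troponin I, read 7.19, 6.76, 7.61 and 7.90 log2 in P81S, 7.37, 6.82 and 6.61 in R167Q and 7.26, 6.83 and 6.63 in wildtype. R167Q and wildtype covered almost the same span. Mybpc1, slow myosin-binding protein C, read 6.55, 6.42, 7.59 and 6.94 log2 in P81S, 7.79, 6.62 and 6.30 in R167Q and 6.56, 6.76 and 6.03 in wildtype. R167Q replicate 1 and P81S replicate 3 stood above the rest. Tnnt1, slow troponin T, stayed between 6.13 and 6.91.

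Of the cardiac and shared genes, Myl4 and Tnnt2 had the widest ranges and Mybpc3, Myl3 and Myl2 the narrowest. Myl4, an essential light chain of atrium and of embryonic muscle, read 10.06, 8.26, 11.04 and 10.78 log2 in P81S, 10.16, 9.69 and 8.87 in R167Q and 9.97, 8.76 and 8.66 in wildtype. Tnnt2, the cardiac troponin T, which embryonic skeletal muscle also makes, read 8.32, 7.41, 8.90 and 9.04 log2 in P81S, 8.64, 8.28 and 7.56 in R167Q and 8.18, 7.30 and 7.59 in wildtype. Both genes were high in P81S replicates 3 and 4 and low in P81S replicate 2, and their groups overlapped. Mybpc3, cardiac myosin-binding protein C, stayed between 5.80 and 6.19 and Tnni3, cardiac troponin I, between 6.49 and 7.73. Of the isoforms that heart and slow fibres share, Myl2 lay between 5.21 and 5.93 and Myl3 between 5.52 and 6.17. Those are the ventricular regulatory and essential light chains. Myh7, the beta or slow myosin heavy chain, read 6.90, 6.10, 6.21 and 5.98 log2 in P81S, 6.67, 5.97 and 5.85 in R167Q and 5.95, 5.88 and 6.10 in wildtype. P81S replicate 1 and R167Q replicate 1 stood above the others. The median range over the 10 arrays was 1.24 log2 for the 9 cardiac and shared isoforms, from 0.39 to 2.77. It was 2.71 log2 for the 14 skeletal isoforms, from 0.78 to 4.47. Mybpc3, Myl2 and Myl3 lay within or below the range of the unannotated control probe set medians, 5.40 to 6.24 log2. So did Myh7 apart from P81S replicate 1 and R167Q replicate 1. These values were not shown to be above background, and the part of low signal in the narrow ranges was not tested.

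**Figure D2:**
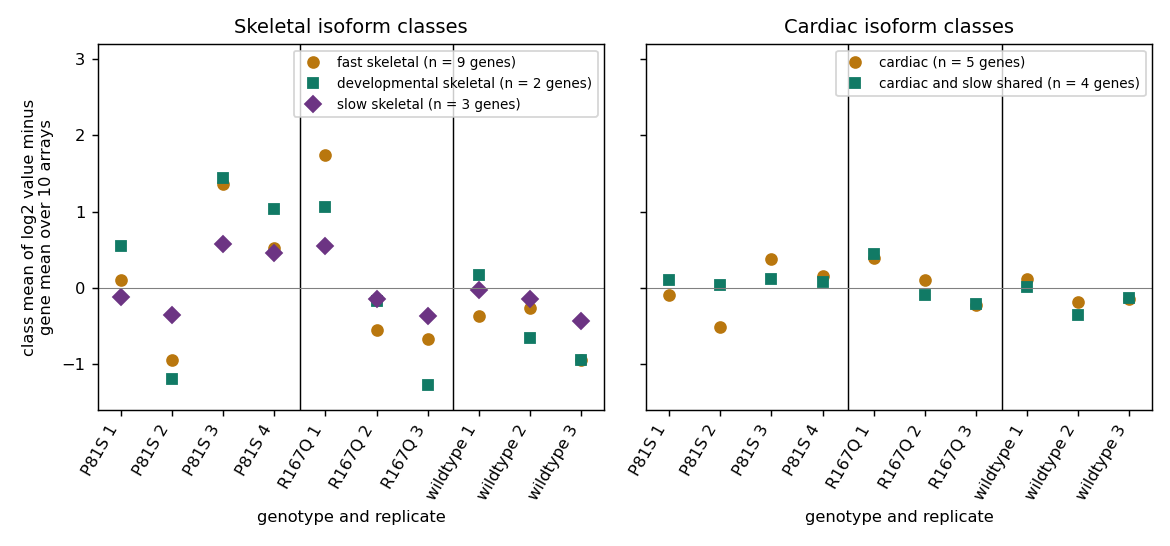
Each point is the mean over a class of the log2 value minus the gene's own mean over the 10 arrays, for skeletal classes on the left and cardiac classes on the right, on the same axis. Fast skeletal genes reached 1.74 in R167Q replicate 1 and -0.94 in P81S replicate 2, whereas cardiac and shared classes stayed between -0.51 and 0.45.

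The actins and the scaffold were high in the same arrays as the skeletal isoforms. Acta1, skeletal alpha-actin, read 9.79, 8.17, 10.90 and 9.95 log2 in P81S, 11.15, 8.36 and 7.95 in R167Q and 8.62, 8.63 and 7.35 in wildtype. R167Q replicate 1 was the highest array and P81S replicate 2 overlapped wildtype. Actc1, cardiac alpha-actin, which embryonic skeletal muscle also makes, read 9.59, 7.28, 10.64 and 9.73 log2 in P81S, 10.02, 9.80 and 8.04 in R167Q and 9.95, 8.40 and 7.88 in wildtype. A wildtype array was among the 3 highest here, and P81S replicate 2 was the lowest of all. Des, the intermediate filament desmin, read 8.53, 6.63, 9.38 and 8.92 log2 in P81S, 9.23, 7.71 and 7.49 in R167Q and 7.84, 7.20 and 7.13 in wildtype. P81S replicate 2 was again the lowest array. Ttn, the giant spring protein titin, read 7.08, 5.77, 8.06 and 7.24 log2 in P81S, 8.46, 6.25 and 6.36 in R167Q and 6.54, 6.83 and 6.48 in wildtype. Wildtype lay inside the span of both mutants. Neb, which sets thin filament length, lay between 6.29 and 8.91.

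Ckm, the muscle creatine kinase, read 7.99, 7.12, 9.45 and 8.42 log2 in P81S, 10.50, 6.82 and 7.18 in R167Q and 7.10, 8.43 and 6.82 in wildtype. The value of R167Q replicate 1 stood far above the other R167Q arrays. A second probe set of Ckm lay between 5.20 and 5.81 in all arrays and did not show that pattern. Ryr1, the calcium release channel of skeletal muscle, read 6.68, 6.57, 7.48 and 7.17 log2 in P81S, 7.80, 6.33 and 6.10 in R167Q and 6.45, 6.32 and 6.52 in wildtype. Every P81S array was above every wildtype array, by a narrow margin.

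P81S replicate 3 was the highest array for 3 of the 4 myogenic factors. Myog read 6.29, 5.02, 7.21 and 6.95 log2 in P81S, 6.34, 6.20 and 5.85 in R167Q and 6.39, 5.05 and 5.22 in wildtype. R167Q replicate 1 was here close to R167Q replicate 2 and to wildtype replicate 1. Myf6 read 5.67, 5.40, 7.09 and 5.93 log2 in P81S, 6.23, 5.18 and 5.46 in R167Q and 5.66, 5.29 and 5.21 in wildtype. P81S replicate 3 stood alone at the top, followed by R167Q replicate 1 and P81S replicate 4. Myod1 lay between 5.71 and 7.49, with P81S replicates 3 and 4 and R167Q replicate 1 again on top. Myf5 lay between 4.87 and 6.22, and its top arrays were P81S replicates 4 and 3. All Myf5 values lay within or below the range of the unannotated control probe set medians, 5.40 to 6.24 log2. So did Myf6 apart from P81S replicate 3. Myod1 did so in P81S replicate 2, R167Q replicate 3 and wildtype replicates 2 and 3. Myog did so in those arrays and in R167Q replicate 2. Such values were not shown to be above background. As class means, the myogenic factors were 1.06 log2 above their own means in P81S replicate 3 and 0.24 in R167Q replicate 1. The fast skeletal genes were 1.37 and 1.74 above theirs in the same arrays. This contrast between arrays rests on single teratomas and has no test.

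**Figure D3:**
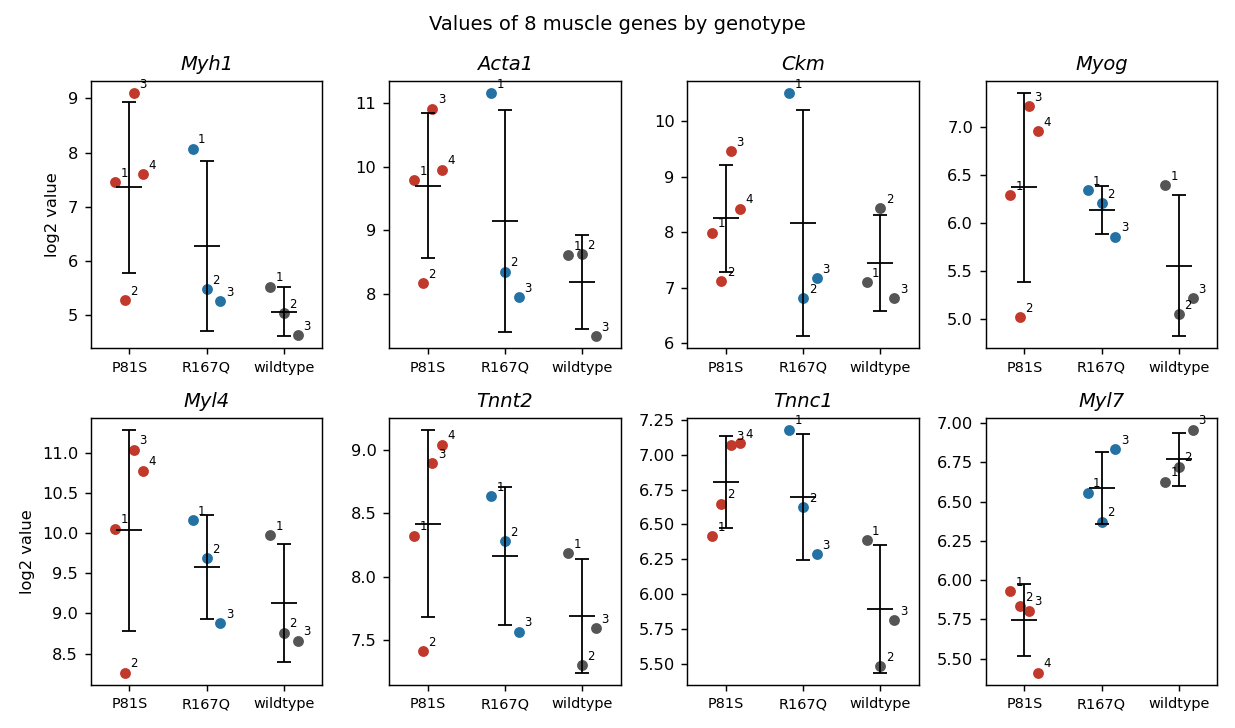
Log2 values of 8 genes by genotype, with replicate numbers beside the points and bars for the mean and SD of each genotype, each gene on its own axis, which does not start at 0. P81S replicate 3 and R167Q replicate 1 sit at the top for Myh1, Acta1 and Ckm, and the P81S points for Myl7 lie below all others.

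P81S teratomas were compared with wildtype teratomas, the question the series title raises for the P81S mutation. Tnnc1 rose and Myl7 fell, and the other 32 of the 34 genes did not pass the test (adjusted p under 0.05 over all 18820 genes, limma). Of all genes, 34.7% were called in this comparison, 17.2% higher and 17.5% lower. Tnnc1, the troponin C of heart and slow fibres, read 6.42, 6.65, 7.07 and 7.08 log2 in P81S, 7.18, 6.62 and 6.29 in R167Q and 6.39, 5.48 and 5.81 in wildtype. P81S and wildtype did not overlap, by a margin of P81S replicate 1 over wildtype replicate 1 that was small against the spread. The difference was 0.91 ± 0.27 log2 (SE), 1.88-fold higher in P81S, with limma adjusted p = 0.0236. Wildtype replicates 2 and 3 lay below the unannotated control probe set medians of the same arrays, 6.18 and 5.94 log2. The fold thus rests in part on values not shown to be above background. Group means were 6.80 ± 0.33 in P81S (SD, n = 4), 6.70 ± 0.45 in R167Q (n = 3) and 5.89 ± 0.46 in wildtype (n = 3). The call was lost without P81S replicate 3 or 4 or wildtype replicate 2 or 3, with adjusted p between 0.0582 and 0.110.

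Myl7, the atrial regulatory light chain, read 5.93, 5.83, 5.81 and 5.41 log2 in P81S, 6.56, 6.37 and 6.83 in R167Q and 6.63, 6.72 and 6.96 in wildtype. All 4 P81S arrays lay below all R167Q and wildtype arrays, which overlapped each other. Myl7 fell by 1.02 ± 0.17 log2 in P81S against wildtype, 2.03-fold, with limma adjusted p = 0.00101. Means were 5.75 ± 0.23 in P81S (n = 4), 6.59 ± 0.23 in R167Q (n = 3) and 6.77 ± 0.17 in wildtype (SD, n = 3). It was the one member called against R167Q as well, where it fell by 0.84 ± 0.17 log2, 1.79-fold, with adjusted p = 0.00603. The P81S values lay in the range of the medians of the unannotated control probe sets, 5.40 to 6.24 log2, which are no measured background.

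Myl7 lies on chromosome 11, as do Myl4 and the 5 myosin heavy chains Myh1, Myh2, Myh3, Myh4 and Myh8. For each array, the median log2 value of 1469 chromosome 11 genes was set against the mean of these medians over all arrays. This shift was -0.21 log2 in P81S replicate 1 and -0.29 in P81S replicate 2, against 0.04 to 0.10 in the other 8 arrays. In chromosome 11 centring this shift was taken off the chromosome 11 genes of each array, and other genes were left as they were. The difference for Myl7 was then -0.88 log2 with limma adjusted p = 0.00797. Myl7 read 5.81 and 5.41 log2 in P81S replicates 3 and 4, where the chromosome 11 medians stood 0.08 and 0.06 above their mean. The part of the chromosome 11 shift in the values of these genes was not tested.

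Myh1 had the largest difference between P81S and wildtype, 2.29 ± 0.84 log2 in deposited values, and it missed the threshold at adjusted p = 0.0543. Its means were 7.36 ± 1.57 in P81S (SD, n = 4) and 5.06 ± 0.45 in wildtype (n = 3). The differences were 1.51 ± 0.77 for Acta1 (adjusted p = 0.163), 1.47 ± 0.92 for Myl1 (0.255) and 1.28 ± 0.72 for Myh8 (0.203). For Des it was 0.98 ± 0.60 (0.243), for Myl4 0.90 ± 0.60 (0.286), for Myog 0.81 ± 0.48 (0.226) and for Ckm 0.80 ± 0.83 (0.508). In each, the SD within P81S was near or above 1 log2, with replicate 2 the lowest and replicate 3 the highest P81S array. With single arrays left out, the difference ran over 1.08 to 2.02 for Acta1, 0.79 to 2.21 for Myl1, 0.88 to 1.87 for Myh8 and 0.64 to 1.55 for Des. It ran over 0.57 to 1.49 for Myl4, 0.53 to 1.27 for Myog and 0.40 to 1.29 for Ckm. Ryr1, whose arrays did not overlap, differed by 0.55 ± 0.37 (0.291). Nonoverlap of P81S and wildtype arrays was seen in 3 of the 34 genes, against 40.6% of all genes.

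By class, P81S against wildtype, the test passed for 0 of 9 fast, 0 of 2 developmental and 0 of 3 slow skeletal genes. It passed for 1 of 4 shared isoforms, 1 of 5 cardiac genes and 0 of 11 others. Differences were positive for 27 of the 34 genes, with a median of 0.56 log2, against 9723 of 18820 genes and a median of 0.01 over all genes. That median was 0.85 without P81S replicate 2, 0.33 without P81S replicate 3 and 0.37 without wildtype replicate 3. At an unadjusted p under 0.05 there were 5 of 34, namely Tnnc1, Myl7, Myh1, Myh2 and Myf5, against 8101 of all 18820 genes.

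**Figure D4:**
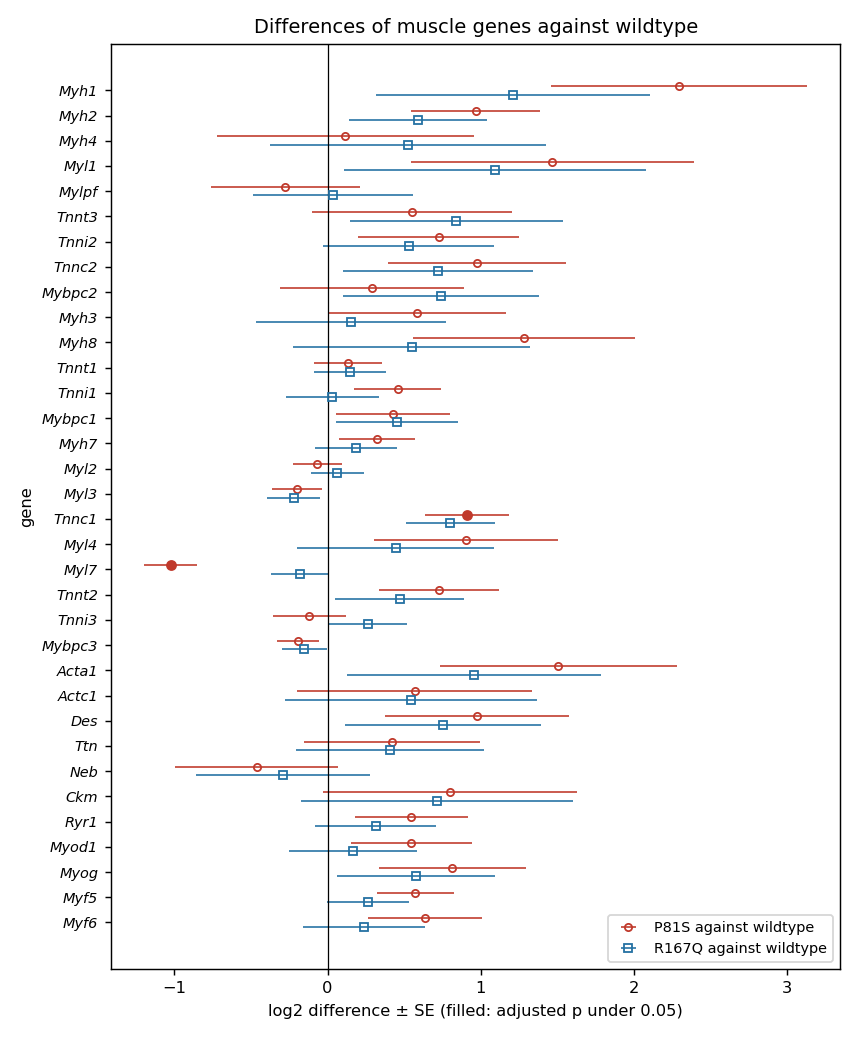
Log2 differences with standard errors for the 34 genes, P81S against wildtype in red and R167Q against wildtype in blue, with filled symbols for adjusted p under 0.05. Only Tnnc1 at 0.91 and Myl7 at -1.02, both in P81S, are filled, and the widest bars belong to fast skeletal genes, the actins and Ckm.

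R167Q teratomas showed no called muscle gene against wildtype. limma called 0 of 34 genes at adjusted p under 0.05, against 0.0903% of all genes (0.0638% higher and 0.0266% lower), and 1 of 34, Tnnc1, had an unadjusted p under 0.05, against 1832 of all 18820 genes. Differences were positive for 30 of the 34 genes with a median of 0.45 log2, against 8651 of 18820 genes and a median of -0.02 over all genes. That excess rested on a single teratoma. Without R167Q replicate 1, 14 of the 34 differences were positive and the median was -0.042 log2. Myh1 differed by 1.21 ± 0.89 log2 (adjusted p = 0.713), Myl1 by 1.09 ± 0.98 (0.769) and Tnnc1 by 0.80 ± 0.29 (0.42). Ckm differed by 0.72 ± 0.89 (0.849) and Acta1 by 0.96 ± 0.83 (0.754). Acta1 and Ckm turned negative without R167Q replicate 1, at -0.041 and -0.45. The group arrays of 0 members did not overlap, against 19.3% of all genes.

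Directly compared, P81S and R167Q differed in 1 of 34 genes, Myl7, against 22.5% of all genes called, 12.4% higher and 10.1% lower. Differences were positive for 23 of 34 genes with a median of 0.17 log2, against 0.02 over all genes. Without R167Q replicate 1 the count was 32 with a median of 0.56, and without R167Q replicate 3 it was 10 with a median of -0.10. The 3 comparisons share arrays, so their values are not independent of each other.

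The spread between teratomas of a genotype was itself large for these genes. The residual SD of the 3-genotype model had a median of 0.770 log2 over the 34 genes, from 0.133 for Mybpc3 to 1.49 for Myl1, against 0.200 over all genes. Of the 34 genes, 24 (70.6%) lay in the top 5% of all genes and 14 (41.2%) in the top 1%. Other tissue lists differed in their shares of the top 5%. These were 75% for pluripotency, 66.7% each for keratinocyte, fibroblast and gut markers, 50% for adipocyte and 44.4% for smooth muscle markers. Neural and cartilage markers had 0%, and the 85 other muscle genes described below had 21.2%. In the top 1% lay 55.6% of keratinocyte, 11.1% of fibroblast and 11.1% of gut markers, and 3.53% of those 85 muscle genes. Pluripotency, adipocyte, smooth muscle, cartilage and neural markers had 0% there. All 9 fast skeletal genes lay in the top 5%, with a class median of 0.961. Of the 5 cardiac genes, 2 did, Myl4 and Tnnt2, and of the 4 shared isoforms 0 did, with class medians of 0.340 and 0.284. Myl7, at 0.215, varied about as much as a typical gene. A wide spread raises the difference that the test can call, so the genes not called here were not shown to be equal between genotypes.

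**Figure D5:**
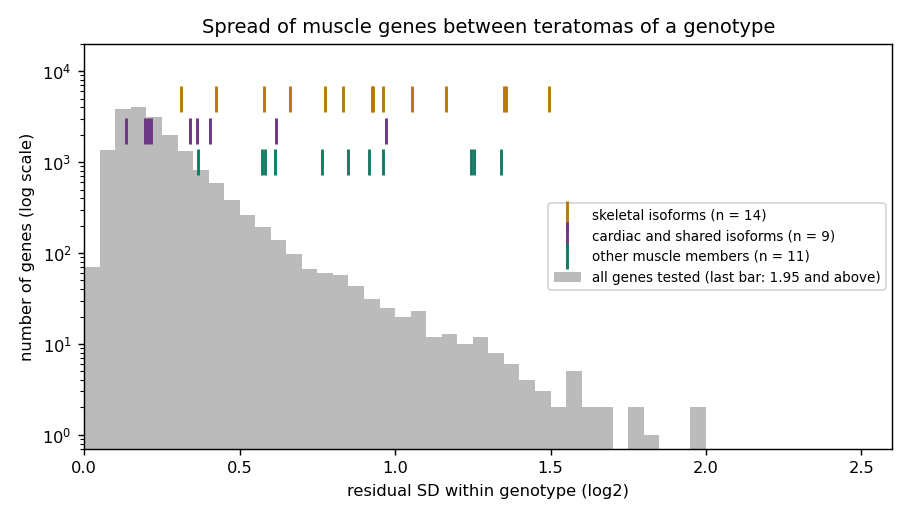
Grey bars count all 18820 genes by residual SD within genotype on a log axis, and coloured ticks mark the 34 muscle genes in 3 sets. The 14 skeletal isoforms lie to the right of most genes, the cardiac and shared isoforms lie partly among typical genes, and Myl1 is the furthest right at 1.49.

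Other genes of striated muscle numbered 85 measured of 90 listed from general knowledge. In P81S against wildtype 12 rose and 4 fell, and 69 did not pass the test, so that 16 of 85 were called beside 34.7% of all genes. The lists were calcium handling (2 of 13 higher), Z-disc and M-band (1 of 22 higher), muscle energy (2 higher and 1 lower of 11), progenitor and fusion (2 higher and 2 lower of 14), neuromuscular junction (1 of 9 higher) and cardiac regulators (4 higher and 1 lower of 16). In R167Q against wildtype 0 of 85 were called by limma, with 4 at an unadjusted p under 0.05, beside 0.0903% of all genes called and 1832 of 18820 at that p. Against R167Q, P81S had 12 higher and 4 lower of 85, beside 22.5% of all genes called. Calcium handling averaged 0.67 log2 above its own mean in P81S replicate 3 and 0.61 in R167Q replicate 1, and muscle energy 0.76 and 0.65.

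Myl6b, a light chain of slow and non-muscle myosin, read 7.87, 8.38, 8.37 and 8.33 log2 in P81S, 7.05, 7.16 and 7.14 in R167Q and 6.75, 6.98 and 6.52 in wildtype. The P81S arrays were above all others, with a difference of 1.49 ± 0.17 log2 against wildtype and adjusted p = 9.92e-05. Unlike the fast genes, Myl6b was not low in P81S replicate 2. The MEF2 factors Mef2c and Mef2d, partners of the myogenic factors that neurons also express, rose by 1.30 ± 0.19 (adjusted p = 0.000436) and 0.66 ± 0.10 (0.000548). Six4, a homeobox gene of muscle precursors, read 7.56, 7.03, 6.66 and 6.10 log2 in P81S, 8.59, 7.93 and 8.72 in R167Q and 8.74, 8.92 and 9.37 in wildtype. It fell by 2.17 ± 0.32 log2 against wildtype, 4.50-fold, with adjusted p = 0.000451, and the P81S arrays lay below all others.

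Hcn4, a pacemaker channel, and Isl1, a factor of cardiac precursors and motor neurons, rose by 1.12 ± 0.16 (adjusted p = 0.000402) and 1.44 ± 0.26 (0.00148) in P81S against wildtype. Atp2a2, the calcium pump of heart and slow muscle that many tissues also use, rose by 0.35 ± 0.08 (0.00458), and Ryr2, the cardiac calcium release channel that is also found in brain, by 0.64 ± 0.21 (0.0336). Nppa, the atrial peptide, rose by 0.51 ± 0.16 (0.0319). Chosen after their values were seen, the other 2 called genes of that list were Smyd1, a methyltransferase of striated muscle, which rose by 0.68 ± 0.19 (0.0182), and Hand1, a factor of the developing heart, which fell by 0.75 ± 0.21 (0.0184). The cardiac factors Gata4, Gata6 and Tbx20 were likewise chosen after their values were seen. Their differences were -0.99 ± 0.37 (0.0631), -0.53 ± 0.42 (0.366) and -0.55 ± 0.32 (0.212), and Tbx20 fell by 1.07 ± 0.32 against R167Q (0.033). Gata4 differed by -1.15 ± 0.40 in R167Q against wildtype and did not pass (0.398). In P81S against wildtype, differences of the cardiac regulator list were positive for 10 of 16 genes and negative for 6. Gata5, Nkx2-5, Tbx5, Hand2 and Myocd were among the positive ones, at 0.14 to 0.33, and did not pass. Subunits of cytochrome c oxidase moved apart: Cox6a2 rose by 1.34 ± 0.27 (0.00285) and Cox7a1 fell by 1.56 ± 0.24 (0.000541). Pfkm, the muscle phosphofructokinase, rose by 0.75 ± 0.15 (0.00325), and Musk, the receptor kinase of the neuromuscular junction, by 0.70 ± 0.23 (0.0372). Wildtype values of Nppa, Smyd1 and Musk lay within or below the range of the control probe set medians of the wildtype arrays, 5.93 to 6.18 log2. Nppa, Smyd1 and Musk were thus not shown to be above background in wildtype. Myoz2, a Z-disc protein, differed by 1.18 ± 0.46 and did not pass (0.0701). Tpm3, Jph2, Lrp4 and Dok7 did not pass against wildtype either, and Dok7, a partner of Musk, was higher than in R167Q by 0.45 ± 0.14 (0.0407).

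Markers of other tissues were read in the same comparison, in which 17.2% of all genes were higher and 17.5% lower. Neural markers were higher for 6 and lower for 1 of 8 genes in P81S against wildtype, with a list mean of 11.64 to 12.01 log2 in P81S, 11.18 to 11.55 in R167Q and 11.01 to 11.34 in wildtype. Pluripotency markers were lower for 8 of 8, with list means of 5.87 to 7.37 in P81S, 8.71 to 9.87 in R167Q and 9.70 to 10.61 in wildtype. Smooth muscle markers were higher for 1 of 9, at 7.25 to 8.40 in P81S, 7.32 to 7.84 in R167Q and 7.01 to 7.34 in wildtype. Keratinocyte markers were higher for 2 of 9 and cartilage markers for 1 of 8, and fibroblast, adipocyte and gut markers for 0 of 9, 0 of 6 and 0 of 9. In R167Q replicate 1 the adipocyte list stood 0.69 log2 above its own mean, the highest of the 10 arrays, and in P81S replicate 3 it stood at -0.32. The keratinocyte list was high in P81S replicate 1 alone, at 2.32. The part of these tissues in the muscle values was not tested.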

How the data were processed

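RNA from 10 teratomas was copied from an oligo(dT) primer, labelled with biotin and hybridised to 1-colour arrays, per the labels' protocols. The deposited values are log2 expression values, 1 per probe set and array. RMA and Partek appear in the submitters' processing notes, and their versions, roles and settings are not given in the sources used here. Scanner files were not used here, so signal over background is unknown, and precision is limited by how many arrays there were. If arrays were set to 1 distribution, differences are relative to the other transcripts of an array.

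Of 35556 probe sets, 6616 unannotated ones with the lowest numbers were left out as a control block. Of the other 28940, 21218 were paired with 1 gene, 1881 with several and 5841 with none. Entrez numbers of 21185 matched a RefSeq table of GRCm38.p6, and 0 symbols changed. The highest-mean probe set stood for each of 18820 genes, of which 1386 had several. Signal shared within gene families cannot be separated, and the myosin heavy chains are close relatives. All 10 value columns were used, 0 were left out and 0 pairs of arrays were identical.

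All arrays entered 1 model with 3 genotype means in limma 3.58.1 (lmFit, eBayes with a variance trend, two-sided) under R 4.3.3, with statmod 1.5.0, 7 residual degrees of freedom and 3.85 prior ones. Adjustment followed Benjamini and Hochberg over 18820 genes, and a call is an adjusted p under 0.05. Tables and figures used Python 3.11.15, pandas 2.3.3 and matplotlib 3.10.9. The procedure was tested on simulated data with independent noise for each gene and array. The simulated arrays shared no clones and their genes were not correlated, so that test does not cover those features. The members and lists were chosen with earlier results of these data known. Array values are given for called members and the 2 of each class with the widest range, and for each other muscle list up to 3 genes with the smallest p are named. Alternatives were quantile normalization, median and chromosome 11 centring, leaving out genes under 5.92 log2 (30 of 34 members stayed), averaging probe sets, array weights, other variance models, a block by replicate number, a test on every probe set, the compared groups alone, pairings of the P81S clones and leaving out each array.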

Additional observations from a re-analysis of the deposited data

How the results depend on the processing

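Under 24 alternatives per comparison, Myl7 was called in all, at -1.10 to -0.88 log2 in P81S against wildtype and -0.95 to -0.68 against R167Q. Among these, the pairings tried for the P81S clones gave correlations within pairs of 0.047, -0.23 and -0.029 over all genes. The true pairs are not known, so these pairings cannot decide whether a call holds across clones. In P81S against wildtype, the count of 2 members became 4 with chromosome 11 centring, which added Myh1 and Myh2, 16 with array weights (15 higher and 1 lower) and 1 with the replicate block. Leaving out single arrays gave 1 to 9. It was 9 without P81S replicate 2, namely Des, Myh1, Myh2, Myh8, Myl4, Myl7, Myog, Tnnc1 and Tnnt2, and 1 without P81S replicate 3, P81S replicate 4, wildtype replicate 2 or wildtype replicate 3. Array weights were 3.44 for P81S replicate 3 and 0.316 for P81S replicate 1. Under the replicate block Tnnc1 had adjusted p = 0.0715. Myh1 was called under 7 of the 24, with adjusted p between 0.00401 and 0.160. The other muscle genes called numbered 16 in P81S against wildtype, 42 with array weights, and 12 to 25 with single arrays left out (25 without P81S replicate 2). Against R167Q they numbered 16, 9 with the replicate block, and 8 to 17 with single arrays left out (10 without R167Q replicate 1, 8 without R167Q replicate 3). R167Q against wildtype gave 0 called under all 24, for both sets of genes. The cause of these moves was not tested.

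No source says that the replicate numbers pair the samples. Correlations of deviations between same-numbered arrays ran from -0.278 to 0.212. They were not set against differently numbered arrays, so they cannot decide whether the numbers mark a pairing. The block changed no count other than those given above by over 1.5 times. Of 102 member differences, 45 changed sign under at least 1 alternative, and 0 called ones did. Among members with values given, with single arrays left out, R167Q against wildtype ran from -0.46 to 0.66 log2 for Myh3, -0.021 to 1.18 for Myh8, -0.19 to 0.21 for Tnni1, -0.069 to 0.34 for Myh7, -0.041 to 1.56 for Acta1, -0.31 to 0.79 for Ttn, -0.45 to 1.39 for Ckm, -0.22 to 0.64 for Ryr1 and -0.067 to 0.45 for Myf6. Their negative ends came without R167Q replicate 1. The number of arrays and the unknown signal over background limit what low values such as those of Myl7 and Mybpc3 can show.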
